A study of Homo sapiens with 42 samples.

Results

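Retained-intron transcripts are annotated RNAs that keep sequence which other transcripts of the same gene splice out. The set described here holds every transcript that GENCODE release 29 types as retained_intron and whose mean level over all 42 libraries was 0.5 TPM or more, TPM being transcript abundance scaled for length and for the library's total. It comprises 12045 transcripts of 5196 genes, out of 25980 retained_intron rows and 194142 transcript rows in all. They were chosen by annotation and selected on their mean level over all libraries, so levels are given as description. The 3 just inside the limit were SPICE1-202, FLOT2-212 and ADAP1-212, at 0.50002, 0.50027 and 0.50028 TPM, and the 3 just outside it were ZNF518A-204, PPP1R7-219 and APOBEC3F-203, at 0.49992, 0.49987 and 0.49983 TPM. The limit is a mean over treated and control libraries alike, so a transcript can pass it through the group where it is high, and counts over the set are read with that in mind.

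The spliceosome removes introns by joining the donor site at an intron's 5′ end to the acceptor site at its 3′ end. A transcript that leaves with an intron in place often meets an early stop codon and is then degraded by nonsense-mediated decay, a surveillance pathway that needs translating ribosomes. Others, called detained introns, stay in the nucleus as a store of nearly finished mRNA. SR proteins and hnRNP proteins, which guide the spliceosome, control their own levels in this way, and many ribosomal protein genes make short intron-holding forms beside their mRNA.

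The study asked what follows for other genes when RNA polymerase III (Pol III), which makes tRNAs and other small RNAs, is impaired. In HEK293T cells, a human embryonic kidney line, 5 groups were compared with 3 kinds of transfection control after 48 h. An antisense oligo (ASO) against POLR3G, a Pol III subunit, was set against a scrambled ASO, both at 200 nM, and a POLR3G siRNA against a control siRNA, both at 200 nM. The siRNAs siE4, siE6 and siE8 against POLR3GL, the paralogue of POLR3G, were set against a control siRNA at 25 nM, so those 3 comparisons share their control libraries. Overexpressed MAF1, the repressor of Pol III, was set against overexpressed eGFP, a fluorescent protein, also at 48 h in HEK293T. THP-1 cells are a line from a monocytic leukaemia. In them ML-60218, an inhibitor of Pol III (25 µM, 4 h), and the translation inhibitor cycloheximide (CHX, 10 µg/ml, 4.5 h) were each set against DMSO, and both together against CHX alone. ML-60218 and CHX alone share the DMSO libraries. Each of the 14 groups had 3 libraries, and the labels do not say whether these came from separate cultures, so p-values measure the spread between these libraries.

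Libraries held 32705684 to 52568088 estimated reads, from poly(A)-selected stranded mRNA. All 6 HEK293T markers and 9 of 10 THP-1 markers were higher in every library of their own line than in any of the other. AZU1 was at 0 in all THP-1 libraries. The summed level of the targeted genes was lower for POLR3G after the ASO (7.4 to 9.58 TPM against 13.3 to 17.3) and after the siRNA (11.9 to 13.7 against 19.0 to 24.5). POLR3GL was at 2.30 to 3.60 TPM in the siE4, siE6 and siE8 libraries against 33.5 to 38.2 in their controls, and POLR3G was lower there too, at 10.5 to 15.9 TPM against 21.2 to 22.8. In the POLR3G siRNA libraries MAF1 was also lower, at 10.5 to 11.9 TPM against 52.1 to 59.0, and so was POLR3GL, at 20.5 to 21.9 TPM against 32.8 to 33.6. After the ASO POLR3GL was at 21.7 to 23.0 TPM against 25.6 to 29.4. MAF1 was at 3643 to 4078 TPM when overexpressed against 41.4 to 43.9 with eGFP. Olfactory receptor genes, which neither line is known to use, summed to 328 to 346 TPM after the POLR3G ASO and to 109 to 118 after the scrambled ASO, and stayed at or under 87.2 TPM in every other library.

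Of the 12045 transcripts, 4706 span at least 1 whole intron that another transcript of the gene splices out, and 7148 only begin or end inside one. The remaining 191 do neither, so for them the annotated type has no counterpart in the exon coordinates. The main intron spanned had a median length of 218 bases (quartiles 112 and 454), and the 8385 distinct introns so retained had a median of 288 bases against 1594 bases for the 107293 other introns of the same genes. Over the main introns of the 4706 transcripts, the median GC content was 56.0%, and 97.7% had GT at the donor and AG at the acceptor. Most of the models are pieces of a gene: their median length was 794 bases, and 8697 reach neither end of the gene to within 100 bases. Only 253 reach both. ACADVL, which encodes an acyl-CoA dehydrogenase of fatty acid oxidation, held the most, with 20 transcripts, while 2309 genes held 1.

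The splice sites of 7 spanned introns are shown because the results below turn on those transcripts and because the introns lie between coding exons in at least 1 coding transcript. Letters are from GRCh38, 5′ to 3′ on the gene's strand. Lower case marks exon, and capitals mark the intron that the retained-intron transcript keeps. The introns lie at chr3:50100606-50103082 (RBM5-212, plus strand), chr2:85542374-85542564 (MAT2A-205, plus), chr17:64500774-64502009 (DDX5-215, minus), chr12:64425183-64425337 (XPOT-206, plus), chr2:200859747-200860124 (CLK1-210, minus), chr5:178616949-178617343 (CLK4-203, minus) and chr1:145977852-145977982 (POLR3GL-203, plus).
RBM5-212 donor: aatcagGTTGCTTCAC
RBM5-212 acceptor: CTAATTACTTCTTTTCTTACAGaaaaag
MAT2A-205 donor: cctcagGTAATGTCAT
MAT2A-205 acceptor: AACTTAAATCCTGTAATTTCAGggtgat
DDX5-215 donor: ggctagGTTAGTACAA
DDX5-215 acceptor: GCCACACTGCAACACCTTACAGatgtgg
XPOT-206 donor: cgaactGTAAGTATAC
XPOT-206 acceptor: TCCTAACTTTTTCCTGATCTAGctggta
CLK1-210 donor: caagatGTATAGAATA
CLK1-210 acceptor: GAGATTTATTTCTCTCTTTTAGatgaaa
CLK4-203 donor: caagatGTATAGAATA
CLK4-203 acceptor: TCTTTTTCCCTCCTCACTCTAGatgaaa
POLR3GL-203 donor: ctagagGTGAGGAGGA
POLR3GL-203 acceptor: TTCCTATTCATCCCCACATGAGaccctg
All 7 introns begin with GT and end with AG. The donor windows of CLK1 and CLK4, paralogous kinases of SR proteins, are the same letter for letter. The DDX5 intron is 1236 bases long.

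Most retained-intron transcripts were scarce. Their median mean level was 1.58 TPM, 3639 lay under 1 TPM and 639 reached 10 TPM. The median transcript made up 4.63% of its gene's TPM (quartiles 2.15% and 9.61%), and 190 made up 50% or more. In the means by line, 8980 reached 0.5 TPM in both lines, 2181 in HEK293T only and 884 in THP-1 only. The highest were all from translation genes: EEF1A1-206, of the elongation factor that brings tRNA to the ribosome, had a mean of 4685 TPM, and RPL14-208, RPL4-203, RPL4-205 and RPS23-203, of ribosomal proteins, had 1580.4, 1118, 1032 and 967 TPM. EEF1A1-206 alone held 98.2% to 98.4% of its gene's TPM in the DMSO libraries. RPL4-203 and RPL4-205 are among the 191 that neither span nor end in an intron. Such levels rest on how the estimate divides reads among transcripts that overlap over much of their length, and no reads across exon junctions were used here.

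Together the retained-intron transcripts took 4.12% to 5.99% of the TPM of a library. With CHX their sum was 52027, 54029 and 53068 TPM, against 58257, 57988 and 59907 with DMSO, with no overlap. Transcripts of the nonsense_mediated_decay type at or over the same limit went the other way, from 19119.5 to 19693 TPM with DMSO to 28391 to 28807 with CHX. The POLR3G siRNA libraries held 49761, 49941 and 50929 TPM of retained-intron transcripts against 57828, 59432 and 59093 in their controls, and the POLR3G ASO libraries held 58726, 57732 and 59469 against 52254, 51655 and 52272. These groups also did not overlap, and the siRNA and the ASO stood on opposite sides of their controls. The 3 POLR3GL siRNA groups each overlapped the 25 nM controls, of which replicate 1 stood at 51916 TPM and replicates 2 and 3 at 47395 and 46270 TPM. MAF1 overlapped eGFP, ML-60218 overlapped DMSO, and CHX with ML-60218 overlapped CHX alone.

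**Figure D1:**
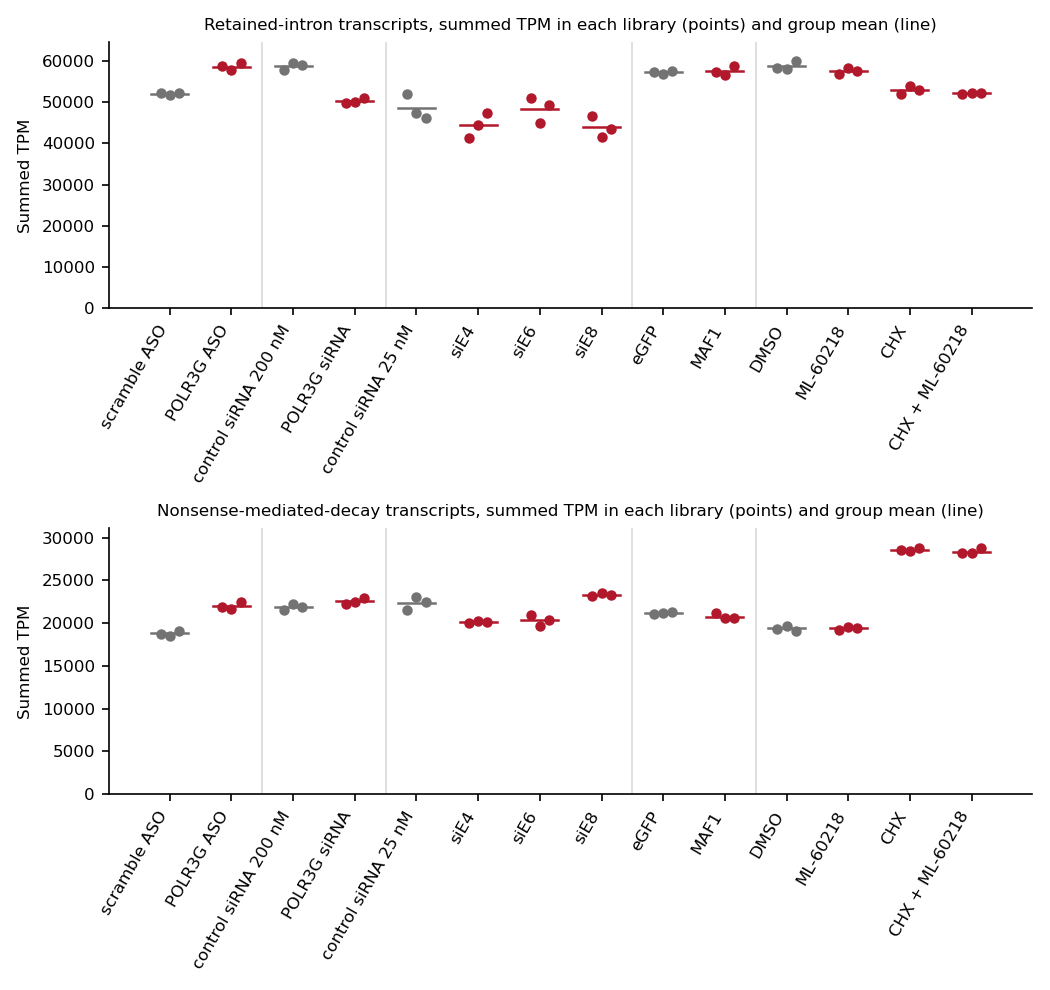
Summed level in TPM (vertical axis, from 0) of the 12045 retained-intron transcripts (upper panel) and of nonsense_mediated_decay transcripts at a mean of 0.5 TPM or more (lower panel) in each library (points; red treated, grey control) of the 14 groups (horizontal axis), with the mean of each group as a line. With CHX the retained-intron sum lies at 52027 to 54029 TPM against 57988 to 59907 with DMSO, and the nonsense_mediated_decay sum at 28391 to 28807 TPM.

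In what follows, "rose" and "fell" are used of transcripts with an adjusted p under 0.05 in edgeR's quasi-likelihood test with Benjamini-Hochberg adjustment over all transcripts tested. The level is the transcript's own abundance, and a log2 change of level is edgeR's. The share is the transcript's percentage of the TPM of its gene, and it is called changed for a named transcript only where both edgeR's test of transcript use within a gene and limma on log ratios gave an adjusted p under 0.05. The rest of the gene is the summed TPM of the gene's other transcripts, compared on the log2(TPM + 0.1) scale. The plot of the percentage of transcripts called sets each comparison's counts beside those over all transcripts tested. With TPM in place of scaled counts, the median log2 change of all transcripts was 0.21 after the POLR3G ASO and 0.20 with CHX. It was -0.19 with siE4, -0.15 with POLR3G siRNA and -0.12 with siE6. With scaled counts these medians were 0.02, 0.0, -0.03, -0.03 and -0.02. Counts given by TPM are calls of limma on log2(TPM + 0.1) at an adjusted p under 0.05, so the test differs from edgeR's as well as the scale. Where the balance of calls differed, both are given.

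**Figure D2:**
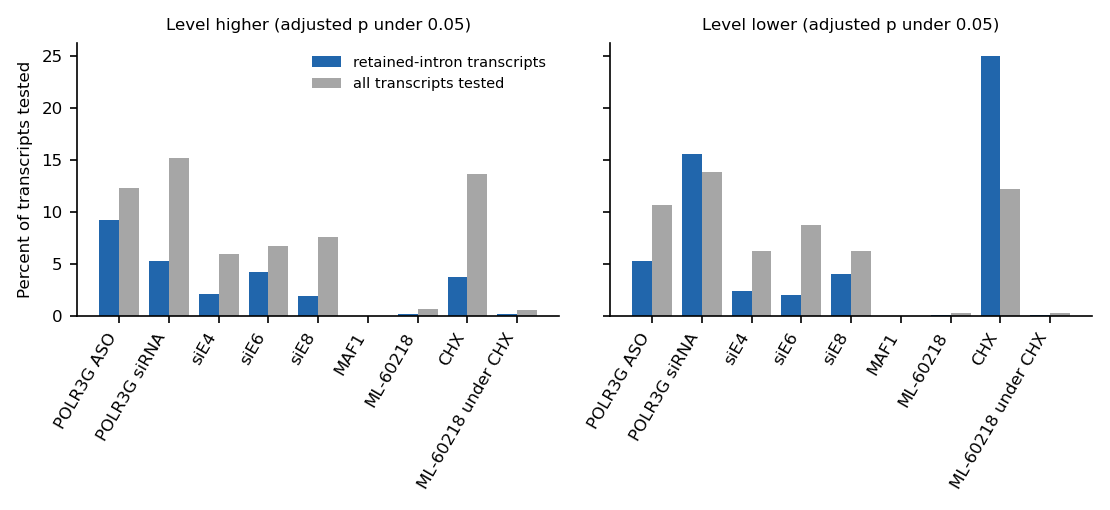
Percentage of tested transcripts (vertical axis) with a level higher (left) or lower (right) at an adjusted p under 0.05 in each of the 9 comparisons (horizontal axis), for retained-intron transcripts (blue bars) and for all transcripts tested (grey bars). The tallest blue bar is that of levels lower with CHX, at 25.0% against 12.2% of all transcripts.

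Cycloheximide gave the broadest change. Of 9973 retained-intron transcripts tested, 2493 fell (25.0%, against 12.2% of all transcripts) and 369 rose (3.7%, against 13.6%). Their median log2 change was -0.47, while the median for the rest of their genes was 0.22. The 2493 that fell had a median of -1.04 and the rest of their genes a median of -0.01, with 1273 of these rests lower and 1219 higher than with DMSO. With TPM as the scale, 1999 fell and 770 rose. Among all transcripts at 0.5 TPM or more 15.4% fell and 16.5% rose by edgeR. Transcripts of the nonsense_mediated_decay type at the same limit showed the other balance, with 1101 of 4247 higher and 239 lower.

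Transcripts that span a whole intron fell more often than those that only begin or end inside one, at 1481 of 4125 (35.9%) against 993 of 5691 (17.4%), and the difference between these classes was not tested beyond the counts. Those that fell had medians of 1244 bases and 3.07 TPM, those that rose 1220 bases and 2.58 TPM, and those not called 806 bases and 1.56 TPM. The part of length and level in the difference between the classes was not tested. In share, 89 of 9906 were lower (0.898%, against 0.791% of all transcripts) and 25 higher (0.252%, against 1.23%). The percentage lower is thus near that over all transcripts. Limma also called 71 and 15 of these, and by itself called 2132 and 199. Without CHX replicate 1, DMSO replicate 1 or DMSO replicate 3, the 89 became 57, 58 and 51, and without CHX replicate 3 the 25 became 16. Summing all retained-intron transcripts of a gene, the share fell in 1708 of 5368 genes (31.8%) and rose in 162 (3.02%), and limma called 1921 and 158. Here and below, the summed share also takes in retained-intron transcripts under the level limit of the set. The 5368 genes tested therefore outnumber the 5196 genes of the set. No other transcript type was summed in this way, so the percentages of summed shares have no background to be read against.

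SRSF2, an SR protein that activates exons, stood against this trend. SRSF2-206 had 22.7, 24.4 and 24.3 TPM with DMSO and 76.3, 77.0 and 77.6 with CHX, a 2.72-fold rise (log2 1.45, SE 0.07, adjusted p = 2.5e-07, edgeR). Its share went from 6.17% to 6.80% with DMSO to 20.8% to 21.0% with CHX (adjusted p = 1.1e-12 in edgeR). The groups lie far apart on both scales, while the rest of the gene went from 341 to 291 TPM. SRSF3-207, of another SR protein, also rose (63.0 to 69.2 TPM with DMSO, 107 to 111 with CHX), and so did the rest of its gene, from 594 to 882 TPM. Neither tool called its share, at 9.26% to 10.87% and 10.88% to 11.2%. DDX5-215, of an RNA helicase that acts in splicing, rose from 113.8, 123.5 and 123 TPM to 200.4, 233 and 212 TPM (adjusted p = 1.2e-05, edgeR). Its share was 25.5% to 29% with DMSO and 31.4% to 37.9% with CHX, which edgeR did not call (adjusted p = 1) and limma did (adjusted p = 0.039).

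The falls in share were led by genes of several roles. HYI-202, of a putative hydroxypyruvate isomerase, had 12.1, 10.9 and 11.3 TPM with DMSO and 1.95, 2.13 and 1.12 with CHX, a 7.86-fold lower level (adjusted p = 7.2e-06, edgeR). Its share was 25.6% to 26.2% with DMSO and 2.39% to 4.69% with CHX, while the rest of the gene went from 32.6 to 45.1 TPM. PRPF39-203, of a factor tied to the U1 snRNP that recognises donor sites, dropped from 39.3% to 42.1% of its gene to 20.1% to 24.2%. TAF1D-215, of a subunit of the Pol I initiation factor whose gene also hosts snoRNAs, dropped from 7.53% to 8.50% to 2.07% to 2.30%. KLHL36-202, of a kelch-like protein, dropped from 37.9% to 38.7% to 14.6% to 23.5%. In each of these the groups did not overlap, and the adjusted p for share was at most 0.028 in edgeR. HYI-202, PRPF39-203 and KLHL36-202 were picked for their change in share, and groups without overlap and edgeR's call were conditions of that choice. The share call of PRPF39-203 was lost without any 1 of the 6 libraries and that of KLHL36-202 without any but CHX replicate 3, while those of HYI-202 and TAF1D-215 were kept in every case.

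RBM5-212 keeps 1 intron of 2477 bases of a splicing regulator, and its donor and acceptor are among those printed above. It had 9.43, 9.22 and 11.2 TPM with DMSO and 5.59, 5.56 and 6.29 with CHX, while the rest of its gene went from 144 to 201 TPM. Its share thus fell from 6.27% to 6.81% to 2.62% to 2.96% (adjusted p = 2.4e-05, edgeR). SRSF5-207, of another SR protein, fell likewise in share, from 11.7% to 12.7% to 6.22% to 7.05%, but this call was lost without any 1 of the 6 libraries.

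MAT2A, which makes the methyl donor S-adenosylmethionine and is a textbook case of a regulated detained intron, differed in this respect. MAT2A-205 fell from 17.2, 18.3 and 19.7 TPM to 8.01, 7.82 and 6.34 (log2 -1.54, SE 0.10, adjusted p = 1.8e-06, edgeR), and the rest of the gene went from 330 to 166 TPM. Its share, 4.98% to 5.66% with DMSO and 3.73% to 4.56% with CHX, was not called by either tool.

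Ribosomal protein genes held 194 of the transcripts, in 65 genes. With CHX 132 of the 181 tested fell, in 59 genes, and none rose, with a median log2 change of -1.36 against -0.47 for all retained-intron transcripts and -0.25 for the rest of their genes. On the TPM scale 133 fell and 1 rose. The summed share fell in 44 of 64 of these genes and rose in 1, RPS12 (2.05% with DMSO, 2.52% with CHX, adjusted p = 0.018, edgeR), which is named here because it was the only one. Here and below, summed-share counts of ribosomal protein genes are calls of edgeR alone, with no count of limma beside them. RPL11 went from 3.58% to 1.13% and RPLP0 from 1.42% to 0.543% (means of 3 libraries). The share of the most abundant forms was not called by either tool. RPL14-208 fell from 1613 to 1669 TPM to 1209 to 1244 TPM, at 78.3% to 78.4% of its gene with DMSO and 77.7% to 78.6% with CHX. RPS23-203 and RPL4-203 fell 1.53-fold and 1.45-fold with shares that neither tool called.

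**Figure D3:**
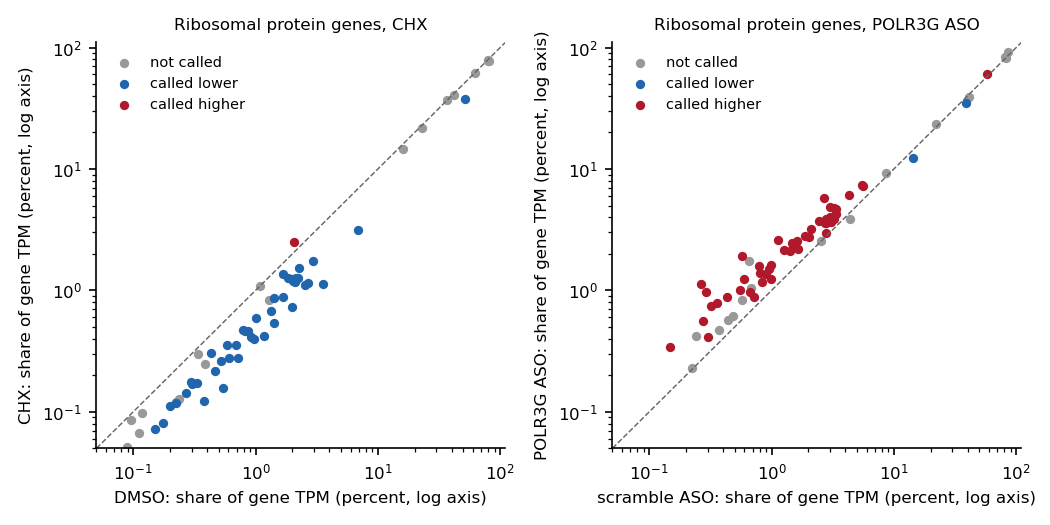
Summed share of the gene's TPM (percent, log axes) held by retained-intron transcripts of any level in each ribosomal protein gene (points). Treated means are set against control means of 3 libraries, for CHX against DMSO (left) and POLR3G ASO against scrambled ASO (right). Blue and red points passed edgeR's test as lower and higher, and the dashed line marks equal shares. With CHX edgeR called 44 of 64 genes lower, and after the ASO it called 47 of 65 higher. Limma was not applied to the colours.

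With CHX, 15 of the 20 transcripts of 3 snoRNA host genes fell and none rose (median -1.35). Over all retained-intron transcripts tested 25.0% fell and 3.7% rose. Among transcripts of spliceosome core genes 28 of 105 fell and 2 rose, and among those of hnRNP genes 26 of 50 fell and 5 rose. Among those of SR proteins and their kinases 12 of 53 fell and 7 rose. HNRNPA1-211, of an hnRNP that represses exons, went from 48.8 to 54.4 TPM to 22.4 to 25.7 TPM. Transcripts of genes known for regulated detained introns gave 25 lower and 9 higher of 89. The falls came from 6 genes and the rises from 8. Among nonsense-mediated decay factors 10 of 23 fell and 1 rose: SMG5-204 dropped from 8.86 to 10.2 TPM to 5.03 to 6.57 TPM. Pol III subunits and MAF1 gave 12 lower of 28 and 1 higher, POLR3D-203, which rose from 2.90 to 3.81 TPM to 9.39 to 10.9 TPM. Of tRNA synthetase transcripts 13 of 48 fell, NARS-210 among them (19.6 to 22.1 TPM with DMSO, 11.3 to 13.9 with CHX), and none rose. Scaled as TPM, each of these lists kept more falls than rises except the SR proteins and their kinases, at 8 of each. By edgeR, the falls of the spliceosome core, SR protein, detained-intron and tRNA synthetase lists lie near the 25.0% of the whole set. Nothing particular to those lists is read from their falls.

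**Figure D4:**
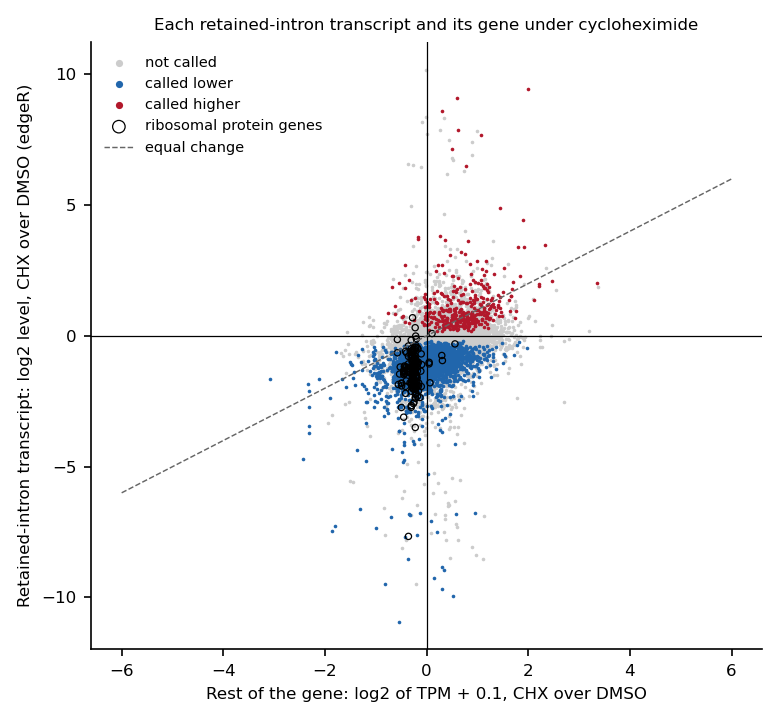
Log2 change of level of each retained-intron transcript with CHX (vertical axis, edgeR) against the log2 change of the rest of its gene on the TPM + 0.1 scale (horizontal axis). Blue points fell, red points rose, grey points were not called, and circles mark ribosomal protein genes. The 2493 blue points have a median of -1.04 on the vertical and -0.01 on the horizontal axis.

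RACK1-220 and SF1-213 were listed at 0 in all 3 CHX libraries. RACK1-220, of a scaffold protein of the small ribosomal subunit, had 18.4, 21.6 and 29.3 TPM with DMSO and 0 with CHX, at least 76.3-fold lower when 0 is set to a floor of 3 reads per library. SF1-213, of the factor that binds the branch point, had 9.56, 3.95 and 11.9 TPM against 0, at least 32.3-fold lower. In both genes the transcript was a small part, at 1.04% to 1.76% and 1.51% to 4.16% of its gene with DMSO. Across the series 259 transcripts were at 0 in 1 library and at 5 TPM or more in another of the same group, and the CHX counts without these were 2484 lower and 364 higher.

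With the POLR3G siRNA, too, more retained-intron transcripts fell than rose. Of 9747 tested, 1513 fell (15.5%, against 13.8% of all transcripts) and 509 rose (5.22%, against 15.2%), with a median log2 change of -0.23. Among all transcripts at 0.5 TPM or more 15.9% fell and 17.3% rose, so the share of retained-intron transcripts that fell is near the background. The 1513 had a median of -1.04 and the rest of their genes one of -0.51, and in 1246 of them the rest of the gene was lower too. In share 102 of 9679 were lower (1.05%, against 1.2% of all) and 34 higher (0.351%, against 1.26%), of which limma also called 95 and 34. The summed share fell in 1126 of 5283 genes (21.3%) and rose in 325 (6.15%), and limma called 843 and 266. The level counts were 901 to 925 lower without any 1 of the control libraries and 321 to 328 higher without any 1 of the siRNA libraries. The share counts were 64 lower without control siRNA replicate 1, and 20, 21 and 21 higher without siRNA replicate 1, 2 and 3.

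DDX5-215 had 185, 183 and 187 TPM with control siRNA and 114, 112 and 121 with POLR3G siRNA (log2 -0.54, SE 0.02, adjusted p = 4.1e-05, edgeR), while the rest of the gene went from 238 to 364 TPM. Its share fell from 43.4% to 44.4% to 23.6% to 24.9% (adjusted p = 0.0033, edgeR). XPOT-206, of the exportin that carries tRNA out of the nucleus, fell 2.67-fold, from 37.4, 41.4 and 40.1 TPM to 12.6, 14.3 and 13.8. Its share fell from 17.8% to 18.7% to 9.47% to 10.8%, with the rest of the gene at 179 and 123 TPM. MRPS5-203, of a mitochondrial ribosomal protein, fell from 34.0% to 36.0% of its gene to 15.4% to 17.7%. LUC7L2-205, of a U1 snRNP factor, fell from 6.02% to 6.40% to 1.75% to 2.28% while the rest of its gene stood at 101 and 102 TPM. TSPAN31-211, of a tetraspanin, went up, from 3.92% to 5.54% to 19.9% to 25.3% of its gene. None of these groups overlapped, and each share passed both tests. DDX5-215, MRPS5-203 and TSPAN31-211 were picked for their change in share, and groups without overlap and edgeR's call were conditions of that choice. The share call of XPOT-206 was kept whichever library was left out. Those of DDX5-215 and MRPS5-203 were lost without siRNA replicate 1 or 2 or control replicate 1 or 3, that of LUC7L2-205 without any but siRNA replicate 3, and that of TSPAN31-211 without any but control replicate 3.

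FIP1L1-212, of a subunit of the polyadenylation complex, had 6.30, 5.61 and 5.93 TPM with control siRNA and 0 in the siRNA libraries, at least 92.2-fold lower at the floor of 3 reads, while the rest of its gene was at 41.5 and 43.6 TPM. Other falls followed the gene. RPL13-213 went from 731 to 767 TPM to 136 to 146 TPM and RPL4-203 from 1308 to 1348 TPM to 467 to 485 TPM, with the rest of RPL4 at 2068 and 746 TPM and the share of RPL4-203 at 38.7% to 39.5% and 38.3% to 39.2%. The share of RPL13-213 was 36.3% to 38.1% and 28.9% to 31.6%, which neither tool called.

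By gene group, the integrated stress response, which raises amino acid synthesis and transport when translation initiation is curbed, showed the widest fall: 18 of 27 retained-intron transcripts fell and 2 rose, with a median of -1.25. ASNS-215, of asparagine synthetase, fell 5.05-fold at a share of 3.97% to 4.19% and 3.67% to 4.39%, with the rest of the gene going from 369 to 65.0 TPM. DDIT4-203, of an mTORC1 inhibitor, fell 6.01-fold, also with its gene (376 to 74.1 TPM). Of tRNA synthetase transcripts 16 of 47 fell and 1 rose, RARS-207. NARS-210 fell from 13.4 to 16.1 TPM to 5.83 to 5.95 TPM while the rest of NARS stood at 192 and 191 TPM, but its share was called by limma (adjusted p = 0.011) and not by edgeR (adjusted p = 0.12). Ribosomal protein transcripts went the other way from the whole, with 61 of 188 higher and 11 lower and a summed share higher in 25 of 65 genes and lower in 6. SR proteins and their kinases gave 12 higher and 5 lower of 52, hnRNP genes 9 and 6 of 51, and spliceosome core genes 7 and 21 of 100. For the whole set of retained-intron transcripts tested, 5.22% rose and 15.5% fell. By TPM, ribosomal proteins gave 60 higher and 14 lower and SR proteins 11 and 7, and hnRNP genes turned to 5 higher and 15 lower.

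After the POLR3G ASO more retained-intron transcripts rose than fell. Of 10273 tested, 948 rose (9.23%, against 12.3% of all transcripts) and 545 fell (5.31%, against 10.6%), with a median log2 change of 0.02. Both percentages lie under those over all transcripts. Among all transcripts at 0.5 TPM or more 10.3% rose and 13.4% fell, so the percentage of retained-intron transcripts that rose is near that background. In TPM, 1895 retained-intron transcripts rose and 319 fell. In share 57 of 10208 were higher (0.558%, against 1.47% of all) and 17 lower (0.167%, against 0.624%). Limma also called 44 and 13 of these, and by itself called 517 and 117. The summed share rose in 1189 of 5812 genes (20.5%) and fell in 154 (2.65%), and limma called 800 and 141. The ASO libraries were the shallowest of the series, at 32705684 to 35035342 reads against 37759087 to 37929970 in their controls. Their olfactory receptor sum of 328 to 346 TPM against 109 to 118, and their mitochondrial mRNA at 21.3% to 22.5% of TPM against 25.5% to 27.9%, moved together with these counts, and their part in the counts was not tested. Whichever of the 6 libraries was left out, the counts dropped to 482 to 599 higher and 257 to 327 lower in level. In share, leaving out ASO replicate 1, 2 or 3 gave 34, 36 and 25 higher and 36, 37 and 28 lower.

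LAMA1-207, of a laminin chain of the basement membrane, went from 30.1% to 38.5% of its gene to 62.8% to 63.3% (adjusted p = 0.0051, edgeR). Its level of 2.66 to 3.28 TPM and 3.95 to 4.03 TPM was not called (adjusted p = 0.079, edgeR), and the rest of the gene went from 5.72 to 2.34 TPM. SBF2-206, of a myotubularin-related protein, rose from 0.997, 0.895 and 1.05 TPM to 3.06, 3.09 and 3.23 and from 10.7% to 12.1% to 34.8% to 43.5% of its gene. WDR7-204, of a WD-repeat protein, rose from 0 to 0.236 TPM to 2.66 to 3.07 TPM. Its level call was lost without any 1 of the 3 ASO libraries or without scrambled ASO replicate 3, and its share of 0% to 4.79% and 30.1% to 36.8% passed both tests, though not without scrambled ASO replicate 1. TBL3-206, of a factor in ribosomal RNA processing, fell from 46.6% to 64.0% of its gene to 21.5% to 28.9%, with a rest of the gene of 8.11 and 13.6 TPM. The share call of TBL3-206 was lost without any 1 of the 6 libraries and that of LAMA1-207 without scrambled ASO replicate 1 or 2.

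EEF1G-203, of a subunit of the elongation factor 1 complex, was at 0 in the scrambled ASO libraries and at 4.71, 6.47 and 5.23 TPM after the ASO. It was also at 0 with control siRNA and at 2.41, 1.53 and 0.990 TPM with POLR3G siRNA. It was at 0 in the 12 other groups and so passed the limit of 0.5 TPM only through the 2 groups where it is high, and these values are a description. In both it made up at most 0.38% of its gene. GSS-215, of glutathione synthetase, went from 2.61, 2.07 and 1.18 TPM to 0 after the ASO, at least 26.3-fold lower at the floor of 3 reads, while the rest of its gene was at 15.5 and 15.1 TPM.

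Ribosomal protein transcripts led the rises after the ASO, with 52 of 190 higher and 10 lower, a median of 0.39 and a summed share higher in 47 of 65 genes and lower in 2. RPS13-208 had 13.6, 11.7 and 11.7 TPM with scrambled ASO and 33.5, 35.6 and 35.5 with the ASO. Its share rose from 0.659% to 0.817% to 2.01% to 2.10%, and the rest of the gene stood at 1697 and 1672 TPM. RBM39-245, of an SR-like coactivator, rose from 0.877 to 0.950 TPM to 3.30 to 3.61 TPM with a share of 0.403% to 0.449% and 1.10% to 1.14%. Both share calls depend on single libraries: that of RPS13-208 was lost without any but scrambled ASO replicate 1, and that of RBM39-245 without ASO replicate 2 or 3 or scrambled ASO replicate 1 or 3. Spliceosome core genes gave 10 higher and 18 lower of 107, with SNRNP70-203, of the U1 snRNP 70K protein, going from 34.4 to 37.0 TPM to 29.3 to 31.0 TPM. SR proteins and their kinases gave 9 higher and 4 lower of 53, and transcripts of genes known for regulated detained introns 7 and 13 of 93. For the whole set of retained-intron transcripts tested, 9.23% rose and 5.31% fell. On the TPM scale ribosomal proteins gave 115 higher and 3 lower, while spliceosome core genes turned to 22 higher and 9 lower and detained-intron genes to 15 and 6. The integrated stress response list gave 3 higher and 9 lower of 28, or 9 of each with TPM. ASNS-215 went from 17.1 to 19.0 TPM to 9.03 to 9.21 TPM with its gene.

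The 2 ways of lowering POLR3G shared part of their calls. Over the 9360 transcripts tested in both, 295 fell in both, which was 54.4% of the 542 that fell after the ASO and 19.8% of the 1487 that fell with the siRNA. Rises were shared by 113, 12.9% of the 877 and 22.4% of the 504. Over all 62611 transcripts tested in both, shared falls were 39.7% of the ASO's and 33.2% of the siRNA's, and shared rises 25.8% and 16.8%. The retained-intron shares thus lie above these on one side and under them on the other, and nothing particular to the set is read from them. In 66 cases a rise after the ASO met a fall with the siRNA, and in 34 the reverse held. The 2 effects were not tested against each other.

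The 3 POLR3GL siRNAs gave fewer calls and different balances. Of 9806 retained-intron transcripts tested in each, siE4 raised 204 (2.08%, against 5.95% of all transcripts) and lowered 229 (2.34%, against 6.19%). siE6 raised 413 (4.21%, against 6.75%) and lowered 193 (1.97%, against 8.73%). siE8 raised 183 (1.87%, against 7.56%) and lowered 394 (4.02%, against 6.24%). All 6 percentages lie under those over all transcripts. Scaled as TPM, siE4 gave 150 higher and 532 lower and siE6 377 and 352, and siE8 216 and 537.

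In share, siE4 gave 17 higher (0.174%, against 0.426% of all) and 29 lower (0.298%, against 0.633%). siE6 gave 30 (0.308%, against 0.599%) and 22 (0.226%, against 0.804%), and siE8 24 (0.246%, against 0.519%) and 41 (0.421%, against 0.712%). Limma also called 9 and 14, 20 and 5, and 10 and 18 of these. The summed share rose in 192 of 5319 genes (3.61%) and fell in 184 (3.46%) with siE4, in 331 (6.22%) and 74 (1.39%) with siE6, and in 99 (1.86%) and 517 (9.72%) with siE8. Limma called 120 and 78, 207 and 51, and 59 and 171.

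Single libraries weighed on these counts. Without replicate 1 of the 25 nM control, whose retained-intron sum stood above the other 2, siE8 lowered 165, siE4 lowered 147, and the shares with siE8 gave 15 higher and 21 lower. Without control replicate 2 siE4 raised 111 and lowered 151, siE6 raised 249, and the higher shares were 11 with siE4 and 10 with siE8. Without control replicate 3 siE4 raised 121 and siE6 raised 234, with 13 lower shares for siE6 and 12 higher for siE8. Without siE4 replicate 1 siE4 lowered 150, without replicate 2 it raised 113 and lowered 135, and without replicate 3 it raised 110, with 10 higher shares. siE6 raised 222, 250 and 239 without its replicate 1, 2 and 3, lowered 112 and 127 without replicates 2 and 3, and had 13 lower shares without replicate 1. Without siE8 replicate 2 siE8 raised 121 and lowered 176 with 24 lower shares, and without replicate 3 it raised 111 and lowered 181.

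Several transcripts stood out against this background. DYNC1H1-231, of the heavy chain of the dynein motor, was at 0 in the 3 control libraries and at 4.30, 4.77 and 3.79 TPM with siE4, 6.13, 3.67 and 7.62 with siE6 and 3.86, 8.14 and 3.98 with siE8. At the floor of 3 reads that is at least 104-fold, 142-fold and 120-fold higher. All 3 bounds rest on the same control libraries at 0. The mean of DYNC1H1-231 over all 42 libraries is higher than the 9 treated libraries alone could give. The transcript was therefore also present outside this experiment. Whether the siRNAs raised DYNC1H1-231 or these controls were unusual in lacking this transcript was not tested. Its share reached 13% to 37.1% across the 9 treated libraries. WSB1-212, of a ubiquitin ligase substrate receptor, was at 1.90, 3.38 and 3.12 TPM with control siRNA and at 16.9 to 18.7, 15.3 to 18.7 and 11.1 to 13.6 TPM with siE4, siE6 and siE8. Its share rose from 4.5% to 9.93% to between 21.0% and 25.5%, with every treated library above every control library. For siE4 and siE8 such a separation was a condition of picking WSB1-212. The share calls were lost without any but control replicate 2 for siE4 and siE6, and without any 1 library for siE8.

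Other transcripts moved with 1 or 2 of the siRNAs. MTO1-203, of a mitochondrial tRNA-modifying enzyme, was at 3.90, 3.88 and 3.44 TPM with control siRNA and at 0 with siE4, at least 95.4-fold lower. With siE6 and siE8 it was at 2.28 to 3.03 and 4.55 to 7.41 TPM, which were not called (adjusted p = 0.29 and 0.078, edgeR). PATJ-216, of a polarity protein, fell from 27.6% to 31.9% of its gene to 5.32% to 9.05% with siE4. SRSF2-206 fell from 15.9, 11.8 and 12.5 TPM to 2.54, 3.21 and 4.54 with siE4 (3.41-fold, adjusted p = 0.00028, edgeR), with a share of 5.98% to 7.30% and 1.29% to 2.11% and a rest of the gene of 195 and 202 TPM. Its share call was lost without any but siE4 replicate 3.

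PBX3-210, of a homeodomain factor, rose from 24.7% to 30.0% of its gene to 66.7% to 69.9% with siE6, where the rest of the gene went from 24.7 to 10.7 TPM. SNRNP70-203 rose from 32.4, 20.7 and 18.5 TPM to 52.7, 41.9 and 48.9 with siE6, and from 7.94% to 12.6% of its gene to 21.3% to 22.1% (adjusted p = 0.00028 for share, edgeR). RNASEH2C-204, of a subunit of RNase H2, fell from 11.9 to 15.3 TPM to 0 to 1.44 TPM with siE6. STC2-203, of a secreted glycoprotein, fell from 56.0% to 57.7% of its gene to 38.8% to 39.5% with siE8. GTF2I-219, of a general transcription factor, was not called in level with siE8 (18.0 to 19.5 and 16.7 to 19.1 TPM, adjusted p = 0.86, edgeR) while its share rose from 9.64% to 10.7% to 17.9% to 18.7%, with the rest of the gene going from 169 to 80.3 TPM. SF3B1-209, of the U2 snRNP subunit, fell from 4.51 to 12.8 TPM to 0.521 to 1.69 TPM with siE8. The share calls of PBX3-210 and STC2-203 were lost without any 1 library, and those of SNRNP70-203, RNASEH2C-204 and GTF2I-219 were kept in every case.

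EFTUD2, a GTPase of the U5 snRNP, showed a change of the whole gene. EFTUD2-215 fell from 44.2, 47.6 and 53.7 TPM to 10.9, 11.2 and 12.1 with siE4 and rose to 68.3 to 77.8 with siE6 and 68.7 to 74.6 with siE8. Its share stayed at 39.2% to 44.4% in all of these libraries.

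By group, ribosomal protein transcripts gave 12 higher and 1 lower of 189 with siE4, 27 and 3 with siE6 and 8 of each with siE8. By TPM, these became 7 and 5, 27 and 6, and 9 and 13. RPL10-211 rose from 33.2 to 43.4 TPM to 91.8 to 111 TPM with siE6 and RPL10-217 from 33.9 to 38.4 TPM to 58.7 to 59.3 TPM with siE8, each under 2% of RPL10. With siE8 RPL10-211 fell, to 27.5, 16.3 and 25.1 TPM (adjusted p = 0.037, edgeR), a call lost without any 1 of the control replicates or siE8 replicate 2 or 3. Both come from the same gene, so they are not independent. Of integrated stress response transcripts 10 of 26 fell with siE4, 9 with siE6 and 4 with siE8, and none rose. For the whole set of retained-intron transcripts tested, 2.08% rose and 2.34% fell with siE4. These were 4.21% and 1.97% with siE6, and 1.87% and 4.02% with siE8. Transcripts of genes known for regulated detained introns gave 12 of 88 lower and none higher with siE8, against 2 lower and 5 higher with siE6. The falls with siE8 came from 8 genes, and with siE6 the falls came from 2 genes and the rises from 4. CLK1-210 went from 7.12 to 10.5 TPM to 3.61 to 5.41 TPM with siE8 and CLK4-203 from 2.14 to 3.87 TPM to 1.05 to 1.36 TPM. CLK4-203 also fell with siE6, to 1.65, 0.949 and 1.28 TPM (adjusted p = 0.026, edgeR), a call lost without control replicate 1 or siE6 replicate 2 or 3. Its call with siE8 was lost without siE8 replicate 3, and with siE8 the share of neither transcript was called by edgeR (adjusted p = 1).

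POLR3GL-203, the retained-intron transcript of the targeted gene, keeps an intron of 131 bases. It had 1.14, 1.41 and 1.48 TPM with control siRNA, 0.585, 0.479 and 0.488 with siE4, 0.936, 0.184 and 0.648 with siE6 and 0.228, 0.201 and 0.0928 with siE8. Only the fall with siE8 passed the test (7.18-fold, adjusted p = 0.0082, edgeR), and the adjusted p was 0.22 with siE4 and 0.23 with siE6. The rest of the gene went from 34.0 TPM to 2.18, 2.55 and 2.40 TPM. Its share was therefore 3.39% to 4.30% with control siRNA and 18.0% to 21.2% with siE4, 7.67% to 27.4% with siE6 and 3.97% to 9.02% with siE8, and edgeR called none of these shares, while limma called those with siE4 and siE6 (adjusted p = 0.0049 and 0.0044).

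MAF1 overexpression left no call in level. Of 10389 retained-intron transcripts tested, 0 rose and 0 fell in edgeR's test, against 0.00283% and 0.0% of all transcripts. At an unadjusted p under 0.05, 223 were higher and 127 lower, with a median log2 change of 0.03 over those tested. DESeq2 called 23 higher and 17 lower, and limma 1 of each. In share 1 was higher (0.0097%, against 0.0929% of all) and 0 lower (against 0.0838% of all), with 31 and 19 at an unadjusted p under 0.05. Leaving out 1 library gave 4 to 13 higher and 3 to 6 lower, whichever library it was. The 1 transcript was DHX36-203, of a helicase that unwinds G-quadruplexes. It was at 0 in the eGFP libraries and at 3.23, 3.81 and 4.13 TPM with MAF1, at least 75.8-fold higher at the floor of 3 reads. Its share was 5.22% to 6.58% with MAF1 (adjusted p = 2.5e-07, edgeR), while its level did not pass (adjusted p = 0.084).

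ML-60218 alone moved few retained-intron transcripts in THP-1 cells. Of 9973 tested, 19 rose (0.191%, against 0.689% of all transcripts) and 12 fell (0.12%, against 0.273%). In TPM, 22 rose and 23 fell. In share 4 of 9906 were higher (0.0404%, against 0.191% of all) and 9 lower (0.0909%, against 0.213%), and none of these was called by limma. SYTL1-206, of a synaptotagmin-like membrane traffic protein, rose from 2.86, 3.13 and 3.37 TPM to 5.83, 8.20 and 5.60, and ACADVL-214 from 2.78, 3.33 and 3.62 TPM to 6.54, 6.88 and 6.64. In both genes the rest was higher as well, at 11.8 and 19.0 TPM and at 189.6 and 267 TPM. LGALS3-207, of a galectin, rose 1.98-fold, and CLEC12A-206, of an inhibitory lectin receptor of myeloid cells, and RNASET2-202, of a lysosomal ribonuclease, fell 1.86-fold and 1.74-fold. The groups of these 5 did not overlap, which was a condition of picking them. Of the 5, ACADVL-214 kept its call whichever library was left out. The numbers of rises were 8, 10, 8 and 12 without DMSO replicate 1 and ML-60218 replicates 1, 2 and 3, and those of falls were 6, 7 and 6 without DMSO replicate 1 and ML-60218 replicates 1 and 2. Higher shares numbered 9, 7 and 2 without DMSO replicates 2 and 3 and ML-60218 replicate 1, and lower shares 5 without DMSO replicate 3.

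Under CHX, adding ML-60218 raised 21 of 9973 (0.211%, against 0.529% of all transcripts) and lowered 11 (0.11%, against 0.284%). With TPM as the scale 20 rose and 22 fell. Shares gave 12 higher (0.121%, against 0.212% of all) and 10 lower (0.101%, against 0.178%), of which limma also called 2 and 1. POLR2H-211, of a subunit that all 3 nuclear RNA polymerases share, rose from 4.36, 4.85 and 3.79 TPM with CHX to 9.08, 15.7 and 11.3 with both agents (2.87-fold, adjusted p = 0.0066, edgeR). Its rest went from 47.9 to 66.4 TPM. TSPAN32-208, of a tetraspanin of blood cells, and ABTB1-203, of an ankyrin and BTB protein, fell 1.56-fold and 1.58-fold. DDX5-215 fell from 200.4, 233 and 212 TPM to 165, 154 and 161 TPM (adjusted p = 0.011, edgeR), with shares of 31.4% to 37.9% and 20.2% to 21.5% that neither tool called. SH3BP2-218, of an adaptor of immune receptors, was at 0 with CHX and at 1.60, 3.27 and 3.64 TPM with both agents, at least 15.1-fold higher at the floor of 3 reads, and at 1.98, 5.07 and 4.36 TPM with DMSO. ZMYM5-205, of a zinc finger protein, was at 1.47, 2.98 and 1.67 TPM with CHX and at 0 with both agents, at least 30.4-fold lower, with a level just short of the threshold (adjusted p = 0.0501, edgeR) and a share of 3.19% to 6.42% that passed both tests. Without replicate 2 or 3 of the libraries with both agents the rises numbered 8 and 10, and the falls were 6 without CHX replicate 3 and 4 without replicate 3 of both agents. The call of ABTB1-203 was lost without any 1 library, that of DDX5-215 without replicate 2 or 3 of both agents, and the share call of ZMYM5-205 without any 1 of the libraries with both agents.

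The difference between the effect of ML-60218 with and without CHX was tested as an interaction. In level 2 retained-intron transcripts were higher (0.0201%, against 0.039% of all) and 1 lower (0.01%, against 0.0806%), with 269 and 195 at an unadjusted p under 0.05. In share 14 were higher (0.141%, against 0.287% of all) and 8 lower (0.0808%, against 0.245%), and limma called none of these 22. The level counts ran from 1 to 8 higher and from 0 to 3 lower when 1 of the 12 libraries was left out, with 8 higher without CHX replicate 2 and 3 lower without replicate 2 of both agents, and the lower shares were 13 and 5 without replicates 2 and 3 of both agents.

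The 6 transcripts of the plot of shares by group show how far levels within a gene differ between controls as well as between treatments. SRSF2-206 held 3.61% to 4.66% of its gene with eGFP and 8.14% to 9.25% with 200 nM control siRNA, both in HEK293T, and 19.1% to 21.4% with CHX and ML-60218 in THP-1. TAF1D-215 was at 4.05% to 6.15% with 25 nM control siRNA and at 8.33% to 9.03% with eGFP. DDX5-215 held 52.0% to 55.6% with scrambled ASO and 38.7% to 43.6% with the POLR3G ASO, a difference that limma called (adjusted p = 0.035) and edgeR did not (adjusted p = 0.91). With POLR3G siRNA both tools called the share of DDX5-215 lower. With siE4, siE6 and siE8, which share their control libraries, limma called it lower and edgeR did not. With ML-60218 and with MAF1 neither tool called it. SNRNP70-203 held 25.9% to 26.8% with DMSO in THP-1, 20.4% to 20.8% with 200 nM control siRNA and 7.33% to 8.32% with eGFP in HEK293T. HYI-202 was at 2.39% to 4.69% with CHX and 2.55% to 4.13% with CHX and ML-60218, under every other library of the series. PRPF39-203 was at 20.1% to 28.7% in the 6 libraries with CHX and 39.3% to 42.1% with DMSO.

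**Figure D5:**
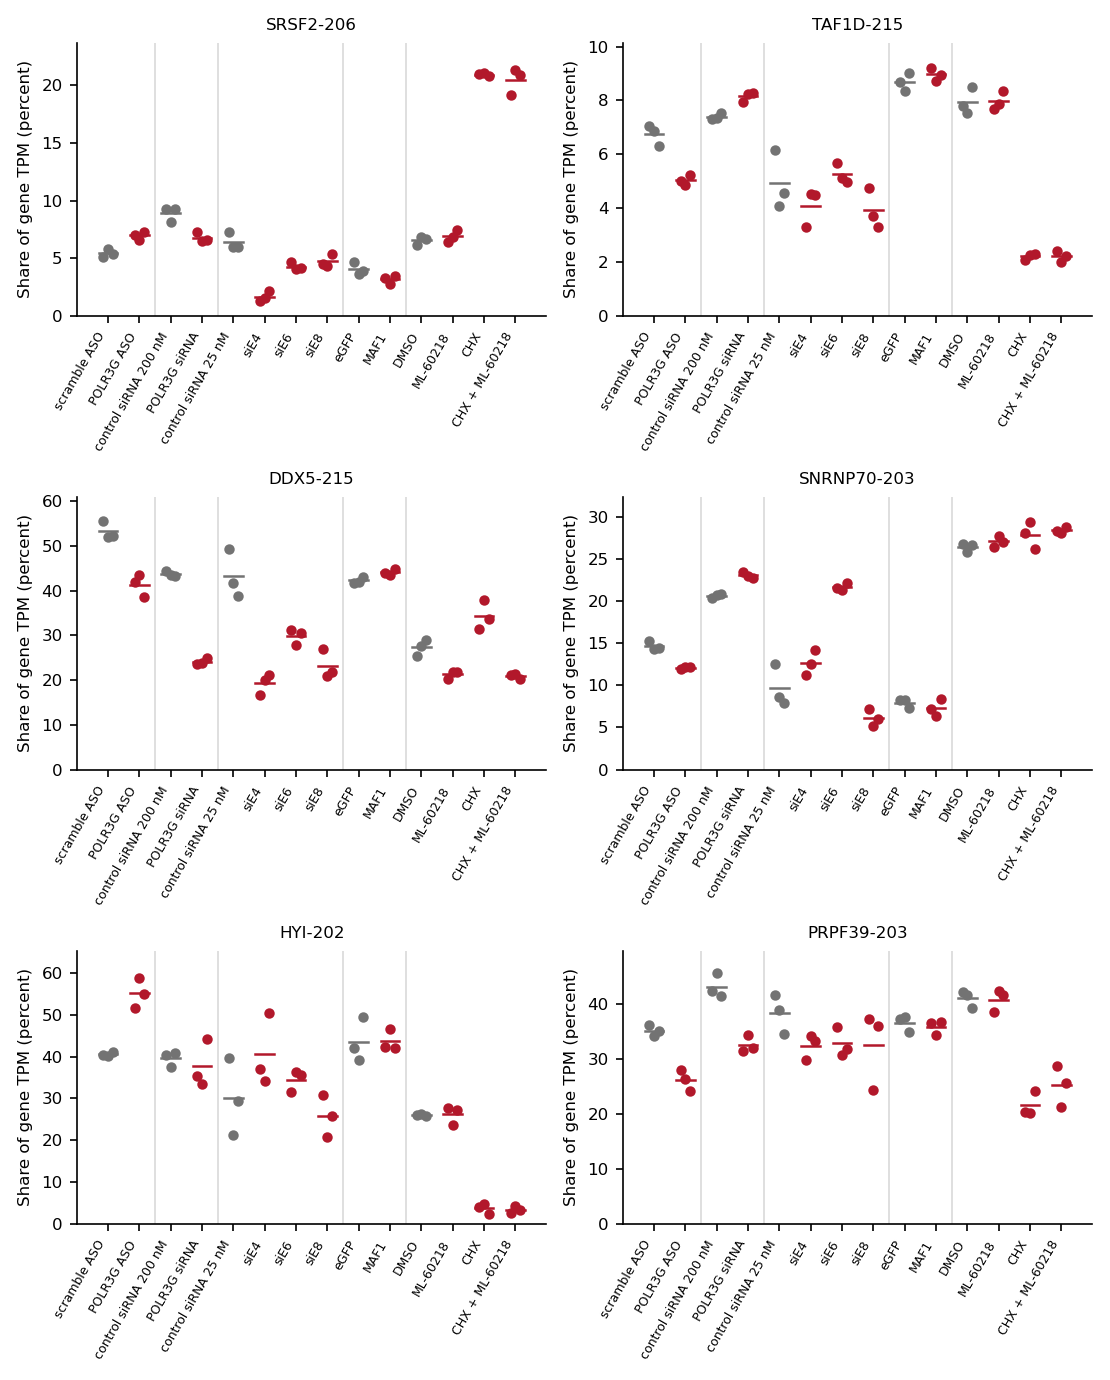
Share of the gene's TPM (percent, vertical axis, from 0) held by 6 retained-intron transcripts in each library (points; red treated, grey control) of the 14 groups (horizontal axis), with group means as lines. SRSF2-206 stands at 20.8% to 21.0% with CHX against 6.17% to 6.80% with DMSO, and DDX5-215 at 23.6% to 24.9% with POLR3G siRNA against 43.4% to 44.4% in its control.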

How the data were processed

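Poly(A) RNA of 14 groups of 3 libraries was sequenced in pairs of 151 cycles. Per the submitters' processing notes, the authors used bcl2fastq 2.20, Trim Galore, Salmon and DESeq2 with hg38. The deposited tables give, per the file headers, an estimated count and a TPM for each transcript and library. How Salmon was run and on which annotation is not given in the sources used here. Transcript types come from GENCODE release 29 (GRCh38), matched by Ensembl ID without version: 158359 of 194142 rows (81.6%) matched, and unmatched rows held 8.06% to 9.54% of reads.

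Counts were rounded and tested with edgeR 4.0.16 in R 4.3.3 (TMM, filterByExpr with a minimum count of 10, quasi-likelihood) on all transcripts of an experiment, with Benjamini-Hochberg adjustment at 0.05. 10273, 9747, 9806, 10389 and 9973 of the 12045 retained-intron transcripts passed the filter (POLR3G ASO, POLR3G siRNA, POLR3GL siRNAs, MAF1, THP-1). Shares were tested with diffSpliceDGE. On simulated data that test called unchanged genes more often than its threshold allows, so named shares also had to pass limma 3.58.1 on log2 ratios of TPM + 0.1. DESeq2 1.42.0 was an alternative. Summed shares and the second tool for them were added after seeing the data. These sums also take in retained-intron transcripts under the level limit of the set. Introns under 50 bases were ignored.

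Named transcripts are the 5 highest, the largest changes in level and share per comparison among called transcripts whose groups did not overlap at 1 TPM or more, the called transcripts of listed gene groups with the smallest p, and those of POLR3G, POLR3GL and MAF1. These rules picked 173 transcripts, and only part of them are described. TP53BP1-216, among the largest falls in level with siE4, siE6 and siE8, and REEP4-203, among the largest rises in share with CHX, are not. The transcripts, gene lists and rule were chosen with earlier results of these data known.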

Additional observations from a re-analysis of the deposited data

Results flagged for a closer look

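3 retained-intron transcripts were singled out because the effect of ML-60218 on their level with CHX differed from its effect without CHX in edgeR's interaction test, with Benjamini-Hochberg adjustment over all transcripts. LMO7-210, of a LIM-domain protein, had 0.807, 1.11 and 0.981 TPM with DMSO, 0 with ML-60218 alone, a mean of 1.12 TPM with CHX and 1.18 TPM with both agents (log2 difference of effects 7.67, adjusted p = 0.016). SH3BP2-218 had a mean of 3.80 TPM with DMSO, 4.59 with ML-60218, 0 with CHX and 2.84 with both (8.25, adjusted p = 0.033). ATP13A3-208, of a polyamine transporter, had 3.78, 6.52 and 2.91 TPM with DMSO, ML-60218 and CHX, and 0 with both (-8.95, adjusted p = 0.035). Each rests on 1 group listed at 0, so the fitted log2 difference depends on how 0 is treated and is no bound. Limma also called all 3 (adjusted p = 0.017, 0.020 and 0.012).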

How the results depend on the processing

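Counts of calls are given as higher and lower. They kept within 1.5 times under DESeq2's size factors in all 40 cases. DESeq2 gave level counts of 23 and 17 (MAF1), 94 and 81 (ML-60218), 120 and 91 (ML-60218 under CHX), 49 and 45 (interaction), 500 and 457 (siE4), 833 and 376 (siE6) and 335 and 855 (siE8), and 954 lower for the POLR3G ASO. Limma on TPM + 0.1 gave 770 higher (CHX), 1895 and 319 (ASO), 1 and 1 (MAF1), and lower counts of 2409 (POLR3G siRNA), 532 (siE4), 352 (siE6), 23 (ML-60218), 22 (under CHX) and 2 (interaction). With + 0.5 these were 795, 1945 and 341, 1 higher for MAF1, and 2532, 580, 390, 23 and 23 lower, with 1 higher for the interaction. Limma on shares gave 199 and 2132 (CHX), 517 and 117 (ASO), 291 and 849 (siRNA), 188 and 115 (siE4), 316 and 91 (siE6), 91 and 262 (siE8), 0 and 2 (ML-60218), 2 and 2 (under CHX), 2 and 1 (interaction) and 1 lower (MAF1). It turned the log2 share of DNAJA4-209 with POLR3G siRNA to 1.10 and that of SMG1-217 with the ASO to -0.73. For summed shares limma gave 120 and 78 (siE4), 207 higher (siE6) and 59 and 171 (siE8).

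Without the filter on low counts, levels gave 536 and 344 (ASO), 338 and 932 (siRNA), 108 and 139 (siE4), 242 and 111 (siE6), 108 and 197 (siE8), 12 and 7 (under CHX), 12 higher (ML-60218) and 1 higher (MAF1), and shares 35 higher (ASO), 64 lower (siRNA) and 7 and 7 (MAF1). Without the transcripts at 0 in 1 replicate and high in another, an alternative added after seeing the data, shares gave 9 higher (siE4), 12 lower (siE6), 15 higher (siE8), 0 higher (MAF1) and 0 and 3 (ML-60218). The labels do not say what a replicate number marks, and same-numbered libraries had correlations of deviations from -0.192 to 0.193, so the numbers were not taken to pair the libraries. With the replicate block, levels gave 360 and 166 (ASO), 268 and 690 (siRNA), 9 and 7 (ML-60218), 13 and 7 (under CHX) and 0 and 0 (interaction), and shares 37 higher (ASO), 17 higher (siRNA), 12 and 25 (siE8), 0 and 3 (ML-60218), 6 and 4 (under CHX), 8 higher (interaction) and 2 lower (MAF1). Of 125 named level calls the block lost 11. The cause of these shifts was not tested.

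Leaving out 1 library gave levels of 276 to 318 and 1939 to 2168 (CHX), 482 to 599 and 257 to 327 (ASO), 321 to 354 and 901 to 1064 (siRNA), 110 to 232 and 135 to 168 (siE4), 222 to 477 and 112 to 140 (siE6), 111 to 150 and 165 to 520 (siE8), 0 to 0 in both directions (MAF1), 8 to 20 and 6 to 11 (ML-60218), 8 to 19 and 4 to 16 (under CHX) and 1 to 8 and 0 to 3 (interaction). Shares gave 16 to 24 and 51 to 75 (CHX), 25 to 49 and 13 to 37 (ASO), 20 to 34 and 64 to 100 (siRNA), 10 to 22 and 22 to 29 (siE4), 20 to 27 and 13 to 23 (siE6), 10 to 17 and 21 to 51 (siE8), 4 to 13 and 3 to 6 (MAF1), 2 to 9 and 5 to 10 (ML-60218), 10 to 13 and 9 to 12 (under CHX) and 10 to 18 and 5 to 13 (interaction). Low counts limit the scarce transcripts: 1656 to 2298 of the 12045 did not pass the filter, depending on the experiment, and 4920 were at 0 in at least 1 library.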
